A study of Mus musculus with 4 samples.

Results

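The circadian clock genes and their output factors of the PAR bZIP family were followed in ASZ001 cells, a mouse basal cell carcinoma line, with and without a c-FOS vector. The members were the rows of the deposited count table whose gene symbol was Per1, Per2, Per3, Cry1, Cry2, Dbp, Tef, Hlf, Nr1d1 or Nr1d2. The rule took these 10 genes of 24907 by name, and the list of names was drawn up with earlier results of these data known. Each of the 10 passed the filter on low counts.

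The control group was 2 libraries of cells that carried a doxycycline-inducible vector without insert, and the c-FOS group was 2 libraries of cells whose vector encoded the transcription factor c-FOS. Cells of both groups received doxycycline, and none of the 4 libraries came from c-FOS vector cells without it, so induced c-FOS and other differences between these cells cannot be told apart. The labels give no harvest time and no synchronisation of the cultures, so each value is the level at an unstated point of any rhythm. They number the libraries without saying that these came from separate cultures, and the p-values therefore cover the spread between these samples alone, and that spread may be technical.

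In the mammalian clock, CLOCK and its partner BMAL1 (encoded by Arntl) bind E-box elements and switch on the Per and Cry genes, whose proteins form a complex that returns to repress them. The same activators drive Nr1d1 and Nr1d2, which encode the nuclear receptors REV-ERB alpha and beta. REV-ERBs repress Arntl through elements that the ROR receptors use to activate it. Dbp, Tef and Hlf encode activators of the proline- and acid-rich (PAR) subfamily of basic leucine zipper (bZIP) proteins, the wider family to which c-FOS also belongs. They bind D-box elements, at which the repressor NFIL3 competes with them. Keratinocytes of the skin are known to carry a working clock.

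Promoter sequences are shown for 5 of the members whose start regions held a clock element or a related one. They are from RefSeq, build GRCm38.p6, and each gives the 250 bases before an annotated start, 5′ to 3′ on the gene's strand. The windows searched were 300 bases long and included the first bases of the transcript. RefSeq windows were at hand for 9 of the 10 members (11 windows), with none for Per2. Both strands were searched for the E-box CACGTG, the D-box TTATGTAA or TTACGTAA, the cyclic AMP response element (CRE) TGACGTCA and the AP-1 site TGANTCA. The search also took TNGGTCA, called the ROR core here, where N is any base. These letters are looser than the ROR element itself. The capitals mark every match within the bases shown.
Per3 (chr4:151044666-151044915, strand -): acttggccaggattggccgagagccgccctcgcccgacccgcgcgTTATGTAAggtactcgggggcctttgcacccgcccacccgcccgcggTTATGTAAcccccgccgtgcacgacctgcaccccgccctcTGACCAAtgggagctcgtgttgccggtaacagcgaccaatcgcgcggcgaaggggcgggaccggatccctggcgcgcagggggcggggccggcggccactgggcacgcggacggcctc
Per1 (chr11:69098699-69098948, strand +): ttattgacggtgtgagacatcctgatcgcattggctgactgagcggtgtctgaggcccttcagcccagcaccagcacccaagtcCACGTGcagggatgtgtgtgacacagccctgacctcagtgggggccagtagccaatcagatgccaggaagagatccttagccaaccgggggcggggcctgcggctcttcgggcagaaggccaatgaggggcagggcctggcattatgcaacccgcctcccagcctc
Cry1 (chr10:85185055-85185304, strand -): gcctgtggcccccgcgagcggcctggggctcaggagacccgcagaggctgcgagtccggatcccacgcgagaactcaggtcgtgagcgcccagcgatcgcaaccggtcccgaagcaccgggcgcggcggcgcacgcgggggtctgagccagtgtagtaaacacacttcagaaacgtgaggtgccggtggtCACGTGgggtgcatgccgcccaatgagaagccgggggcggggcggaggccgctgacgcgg
Tef (chr15:81802423-81802672, strand +): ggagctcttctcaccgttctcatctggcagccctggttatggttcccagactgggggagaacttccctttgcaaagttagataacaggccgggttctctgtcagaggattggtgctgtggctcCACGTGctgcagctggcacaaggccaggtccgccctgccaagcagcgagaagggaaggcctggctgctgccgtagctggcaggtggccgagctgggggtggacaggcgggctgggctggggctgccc
Hlf (chr11:90390918-90391167, strand -): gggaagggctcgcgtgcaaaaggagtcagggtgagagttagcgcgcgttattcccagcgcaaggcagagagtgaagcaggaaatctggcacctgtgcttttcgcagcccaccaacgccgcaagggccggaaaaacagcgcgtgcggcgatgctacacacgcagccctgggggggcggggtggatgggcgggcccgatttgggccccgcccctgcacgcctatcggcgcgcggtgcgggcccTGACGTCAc

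Per3 held 2 D-boxes, whose first bases lay at positions -205 and -158, counting -1 as the base before the start. It also held a match of the ROR core letters on the other strand at -118. The E-box lay at -166 in Per1, at -60 in Cry1 and at -127 in Tef, and a second Tef window, at another annotated start, held it at -138. Hlf held the CRE at -9. Matches of the ROR core on the other strand also lay at -133 in Cry2, whose sequence is not shown, and at -219 in the second Tef window. All of these ROR core matches read TGACCAA on the gene's strand, and whether they are ROR elements was not tested. An E-box was found in 4 of the 11 member windows and in 7.15% of all 32851 windows in the RefSeq table. A D-box was found in 1 member window and in 1.06% of all windows, a CRE in 1 and 1.79%, and a ROR core in 3 and 11%. The AP-1 letters were in none of the 11 member windows and in 7.81% of all windows. The windows of Dbp, Nr1d1 and Nr1d2, and a further Per1 window at another start, held none of the searched letters, and no matches of different motifs overlapped in the bases shown. Bases outside these windows and other forms of the elements were not searched, so a gene without a match may still hold such elements. A match is a description of the letters, and binding was not measured.

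With c-FOS, the transcripts of the 3 PAR bZIP activators, of both REV-ERB genes and of Per1 and Per3 were lower. Cry1 was slightly higher, and Per2 and Cry2 did not pass the test. The PAR bZIP gene Dbp was at 32.3% of the control level and Hlf at 39.6%, whereas Tef was at 69.4%. The quasi-likelihood test of edgeR, with Benjamini-Hochberg adjustment and a threshold of 0.05, called 7 of the 10 members lower and 1 higher. It called 67.2% of all 12780 genes tested, 33.4% lower and 33.8% higher. The median log2 fold change was -0.52 over the members and -0.01 over all genes tested. Of the members, 2 were lower by 2-fold or more, as were 7.73% of all genes tested.

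Levels are given as counts-per-million (CPM) values scaled by the trimmed mean of M-values (TMM), and fold changes as log2 of c-FOS over control with their standard error (SE). RNA of bulk cultures was measured, so fewer cells of a type and less RNA per cell cannot be told apart. Fos, the gene carried by the vector, was at 0.404 and 0.351 CPM in the control and at 296.9 and 313.4 CPM in the c-FOS libraries. Vector-derived and endogenous Fos were counted together.

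**Figure D1:**
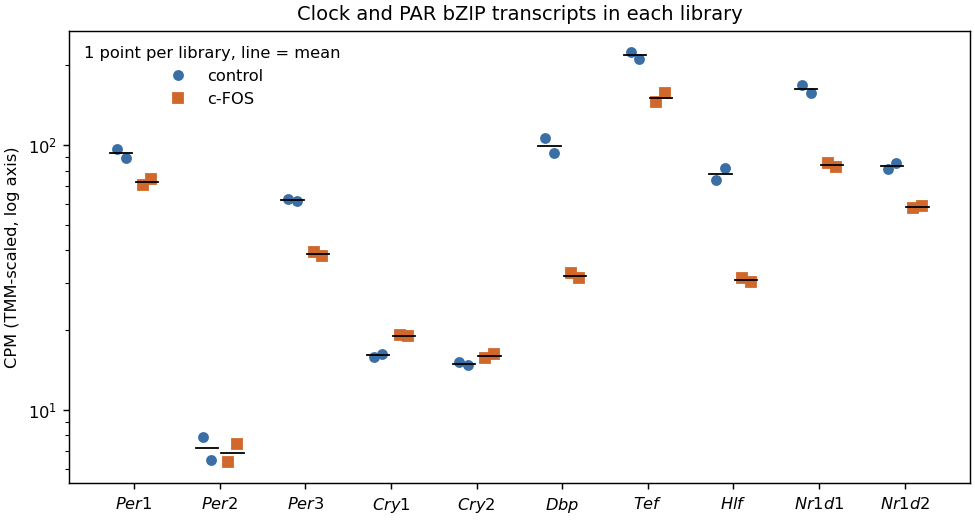
CPM of each member in each library on a log axis, with 1 point per library and a line at each group mean (n = 2 per group). Both c-FOS libraries lay below both control libraries for 7 members and above them for Cry1 and Cry2, and the groups overlapped for Per2. Of all genes tested, 42.1% lay below in this way and 41.5% above.

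Dbp, named for its binding to a D-box of the albumin promoter and one of the most strongly rhythmic outputs of the clock, had 105.9 and 92.8 CPM in the control libraries and 32.9 and 31.3 CPM in the c-FOS libraries. The c-FOS values were close together and far under both controls. The means were 99.4 ± 9.27 and 32.1 ± 1.09 CPM (SD, n = 2 per group), a log2 fold change of -1.63 ± 0.06 (SE; adjusted p = 8.79e-11, edgeR). Of all genes tested, 3.70% had a lower log2 fold change. In the GENCODE M21 annotation, 29.3% of the exonic bases of Dbp are shared with exons of Sphk2, a sphingosine kinase gene on the opposite strand, and whether the authors counted by strand is not stated in the sources at hand. Sphk2 had 60.6 ± 4.22 CPM without and 57 ± 0.886 CPM with c-FOS (SD, n = 2 per group) and did not pass (-0.09 ± 0.05, SE), although it passed as lower with library totals (-0.23), with upper-quartile factors (-0.15) and without control replicate 2 (-0.16).

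Hlf, the PAR bZIP gene first found in a leukaemia fusion, had 73.9 and 81.8 CPM in the control libraries and 31.4 and 30.3 CPM in the c-FOS libraries. Both c-FOS libraries were thus below both controls. Its log2 fold change was -1.34 ± 0.06 (SE; adjusted p = 2.71e-10, edgeR), and 5.21% of all genes tested were lower in this measure. Tef, the thyrotroph embryonic factor gene, had 224.7 and 210.5 CPM in the control and 145 and 156.7 CPM in the c-FOS libraries. The groups did not overlap here either, but the fall was smaller, at -0.53 ± 0.05 (SE; adjusted p = 3.48e-07, edgeR). The 95% interval of the log2 fold change was -0.63 to -0.43 for Tef, -1.46 to -1.21 for Hlf and -1.77 to -1.49 for Dbp. The interval of Tef did not overlap those of the other two, although the difference between genes was not itself tested.

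The make-up of the PAR bZIP transcripts differed between the groups. Per kilobase of the deposited gene model length, which allows levels of different genes to be compared, the 3 genes summed to 129.4 and 119.6 CPM per kilobase in control and to 59.4 and 61.1 in c-FOS libraries. Dbp made up 48.9% and 46.4% of this sum in control and 33.1% and 30.7% in c-FOS libraries. The share of Tef was 41.0% and 41.5% in control and 57.6% and 60.6% in c-FOS libraries. By these values Dbp was the most abundant of the 3 in both control libraries and Tef in both c-FOS libraries. How far reads of the overlapping gene Sphk2 entered the Dbp level was not tested. Hlf kept the smallest share, between 8.76% and 12.1%.

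NFIL3, the bZIP repressor that competes for the D-box, went the other way. Nfil3 had 19.9 and 20.7 CPM in the control and 24.2 and 26.0 CPM in the c-FOS libraries, a rise of 0.31 ± 0.07 on the log2 scale (SE; adjusted p = 0.00238, edgeR). The call was lost when libraries were scaled by their totals and not by TMM (0.17, adjusted p = 0.056, within a range of 0.000104 to 0.056 over the alternatives). The per-length ratio of the summed PAR bZIP transcripts to Nfil3 was 12.9 and 11.5 in the control libraries and 4.88 and 4.68 in the c-FOS libraries. These sums and ratios are descriptions of transcripts, without a test, and protein was not measured.

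**Figure D2:**
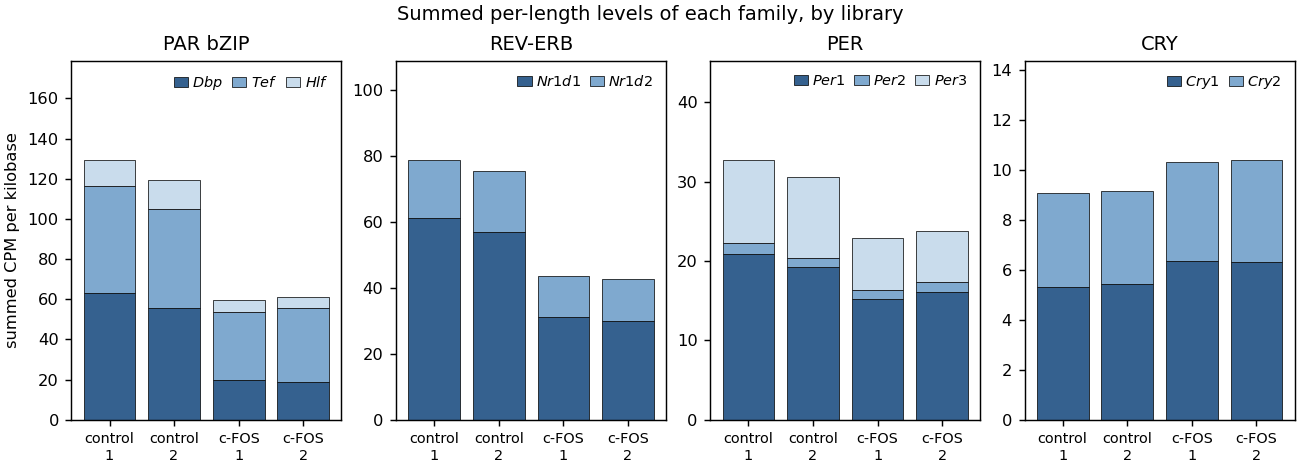
Summed CPM per kilobase of gene model length in each library for the PAR bZIP, REV-ERB, PER and CRY genes, stacked by gene, with 1 bar per library and a separate linear axis from 0 in each panel. The PAR bZIP sum was 129.4 and 119.6 in control and 59.4 and 61.1 in c-FOS libraries, while the CRY sum was 9.08 and 9.13 against 10.3 and 10.4.

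Both REV-ERB genes were lower with c-FOS. Nr1d1 had 168.7 and 156.6 CPM in the control libraries and 85.6 and 82.4 CPM in the c-FOS libraries. Its level with c-FOS was 51.6% of control, a log2 fold change of -0.95 ± 0.05 (SE; adjusted p = 7.16e-10, edgeR). Nr1d1 shares 9.67% of its exonic bases in GENCODE M21 with Thra, the thyroid hormone receptor alpha gene on the opposite strand. Thra also fell, with means of 73.7 ± 2.26 and 48.3 ± 2.58 CPM (SD, n = 2 each) and a log2 fold change of -0.61 ± 0.05 (SE), and how far reads of these 2 genes were mixed was not tested. Nr1d2 had 81.2 and 85.4 CPM in the control and 57.6 and 58.9 CPM in the c-FOS libraries, with a log2 fold change of -0.52 ± 0.05 (SE; adjusted p = 3.39e-07, edgeR). The c-FOS libraries were below the controls for both genes. The per-length ratio of Nr1d1 to Nr1d2 was 3.49 and 3.08 in control and 2.50 and 2.35 in c-FOS libraries, so Nr1d1 was the more abundant in all 4.

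Of the PER genes, whose proteins are the rhythmic partners of CRY in the repressor complex, 2 of 3 fell. Per3 had 62.7 and 61.3 CPM in the control and 39.6 and 38.1 CPM in the c-FOS libraries, a log2 fold change of -0.68 ± 0.05 (SE; adjusted p = 5.51e-08, edgeR). Per3 is the member with 2 D-boxes in the promoter shown above, and whether these bear on its level was not tested. Per1, which is also known as an early response gene, had 96.9 and 89.4 CPM in the control and 70.6 and 74.5 CPM in the c-FOS libraries. Its fall was the smallest of the 7, at -0.36 ± 0.05 (SE; adjusted p = 2.54e-05, edgeR), and again the groups did not overlap. Per2 had 7.87 and 6.45 CPM in the control and 6.33 and 7.43 CPM in the c-FOS libraries. These groups overlapped, and the log2 fold change of -0.05 ± 0.13 (SE) did not pass (adjusted p = 0.738, edgeR). Its 95% interval ran from -0.33 to 0.23. Per2 had the lowest counts of the members, between 175.5 and 234 per library. Its sign turned without control replicate 1 (0.10) and without c-FOS replicate 1 (0.06).

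The CRY genes encode the strongest repressors of CLOCK and BMAL1. Cry1 had 15.9 and 16.3 CPM in the control and 19.1 and 18.9 CPM in the c-FOS libraries, a log2 fold change of 0.24 ± 0.08 (SE; adjusted p = 0.013, edgeR). The call was lost under 5 of 12 alternatives, namely library totals (0.10), upper-quartile factors (0.18), DESeq2 (0.25), leaving out c-FOS replicate 1 (0.24) or c-FOS replicate 2 (0.25), where the adjusted p lay between 0.0521 and 0.24. Cry2 had 15.1 and 14.8 CPM in the control and 15.7 and 16.3 CPM in the c-FOS libraries. It did not pass (0.10 ± 0.08, SE; adjusted p = 0.276, edgeR; 95% interval -0.07 to 0.27), and with library totals its sign turned (-0.04). The per-length ratio of the summed PER to the summed CRY transcripts was 3.61 and 3.36 in control and 2.23 and 2.28 in c-FOS libraries.

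The groups did not overlap for 9 of the 10 members, nor for 83.6% of all genes tested. Both c-FOS libraries lay below both controls for 7 members (42.1% of all genes) and above both for 2 (41.5%). The fall of the 7 members held under all 12 alternatives run, where the highest adjusted p of any of them was 0.000318.

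**Figure D3:**
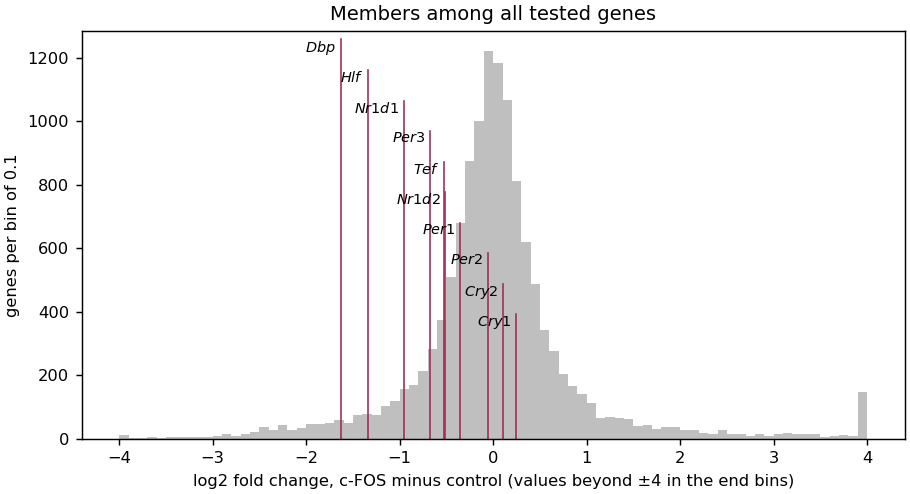
Histogram of the log2 fold changes of all 12780 genes tested in bins of 0.1, with a line at the value of each member (line heights serve only to place the names). Dbp at -1.63 and Hlf at -1.34 lay in the lower tail, and Per2, Cry2 and Cry1 lay between -0.05 and 0.24, near the middle.

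Per length, the members spanned a 48.2-fold range in the control libraries. Dbp (59.4 ± 5.54 CPM per kilobase; SD, n = 2) and Nr1d1 (59.0 ± 3.12) led, and their values overlapped. How far reads of Sphk2 and Thra, whose exons overlap theirs, entered these levels was not tested. Tef followed at 51.3 ± 2.37, then Per1 at 20.1 ± 1.13, Nr1d2 at 18.0 ± 0.646, Hlf at 13.8 ± 0.985 and Per3 at 10.4 ± 0.176. Cry1 (5.36 ± 0.0983), Cry2 (3.74 ± 0.0607) and Per2 (1.23 ± 0.172) were lowest. From Nr1d1 down to Per2, no neighbouring pair overlapped. In the c-FOS libraries the order was led by Tef (35.6 ± 1.96), then Nr1d1 (30.5 ± 0.836), Dbp (19.2 ± 0.654), Per1 (15.6 ± 0.593) and Nr1d2 (12.6 ± 0.191). Per3 (6.50 ± 0.177) and Cry1 (6.33 ± 0.0409) differed there by less than the SD of Per3, and Hlf (5.45 ± 0.143), Cry2 (4.02 ± 0.105) and Per2 (1.18 ± 0.133) followed. Hlf had moved from above to below Per3 and Cry1.

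The other clock genes were read from a list of 18, of which 16 were tested. The test called 5 lower, 5 higher and 6 in neither direction, and their median log2 fold change was 0.08. These calls were 31.2% lower and 31.2% higher, near the 33.4% lower and 33.8% higher of all genes tested. The activators did not pass. Arntl had 27.7 and 26.4 CPM in the control and 25.0 and 24.1 CPM in the c-FOS libraries (-0.14 ± 0.07, SE; adjusted p = 0.0928, edgeR; 95% interval -0.28 to 0.01). It passed as lower with library totals (-0.27), with upper-quartile factors (-0.20) and without control replicate 2 (-0.17). Clock was at 287 and 300.6 CPM in the control and at 305 and 305.5 CPM in the c-FOS libraries (0.06 ± 0.04, SE). It passed as higher without control replicate 2 (0.09, adjusted p = 0.00835, edgeR, within a range of 0.00835 to 0.861 over the alternatives) and had the opposite sign with library totals (-0.08) and upper-quartile factors (-0.01). Arntl2, a paralogue of Arntl, was at 0.01 ± 0.09 (SE), and Npas2, a paralogue of Clock, had between 2.5 and 4.5 counts per library and was not tested.

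ROR receptors activate Arntl at the elements that REV-ERBs repress, and the 2 reported here were low. Rora had 2.76 and 2.71 CPM in the control and 1.37 and 1.16 CPM in the c-FOS libraries, a log2 fold change of -1.12 ± 0.20 (SE; adjusted p = 0.00024, edgeR). It rested on 82 and 85 counts in the control and 38 and 36 in the c-FOS libraries. Rorb was at 0 counts in all 4 libraries.

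The E-box repressors outside the PER and CRY families split. Bhlhe40, which encodes DEC1, a repressor that many stimuli induce, rose from 50.8 and 47.3 CPM to 234.6 and 248.2 CPM. Its log2 fold change was 2.30 ± 0.05 (SE; adjusted p = 2.46e-13, edgeR), and 7.75% of all genes tested rose by 2-fold or more. Its paralogue Bhlhe41 (DEC2) fell by 0.48 on the log2 scale, and Ciart, which encodes the repressor CHRONO, fell from 7.80 and 8.11 CPM to 5.29 and 4.78 CPM (-0.66 ± 0.11, SE).

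Of the kinase and ubiquitin ligase genes that set the stability of PER and CRY, Csnk1d (0.19) and Fbxw11 (0.21) rose on the log2 scale, and both calls were lost with library totals (0.05 and 0.07). Csnk1e (0.10), Fbxl21 (0.60) and Btrc (0.15) did not pass (adjusted p = 0.054, 0.0536 and 0.0788, edgeR). Fbxl21, with 27 to 57 counts per library, passed as higher without control replicate 2 (0.83), without c-FOS replicate 1 (0.79), with no filter (0.60) and with the replicate block (0.59), and was at 0.36 without c-FOS replicate 2. Over its alternatives the adjusted p ran from 0.0186 to 0.419. Csnk1e passed as higher with RLE factors (0.11) and without control replicate 2 (0.11) and had the opposite sign with library totals (-0.03). Btrc passed as higher without control replicate 1 (0.20). Of 3 known targets of the clock, the cell cycle kinase gene Wee1 fell from 38.3 and 42.3 to 25.9 and 26.3 CPM (-0.63 ± 0.07, SE). Nampt, of the NAD salvage pathway, fell from 55.8 and 57.4 to 35.1 and 33.1 CPM (-0.73 ± 0.05, SE), and the ubiquitin protease gene Usp2 rose by 0.36 ± 0.08 (SE). Of the list, 8 genes in place of 5 rose without control replicate 2, and 2 rose with library totals.

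**Figure D4:**
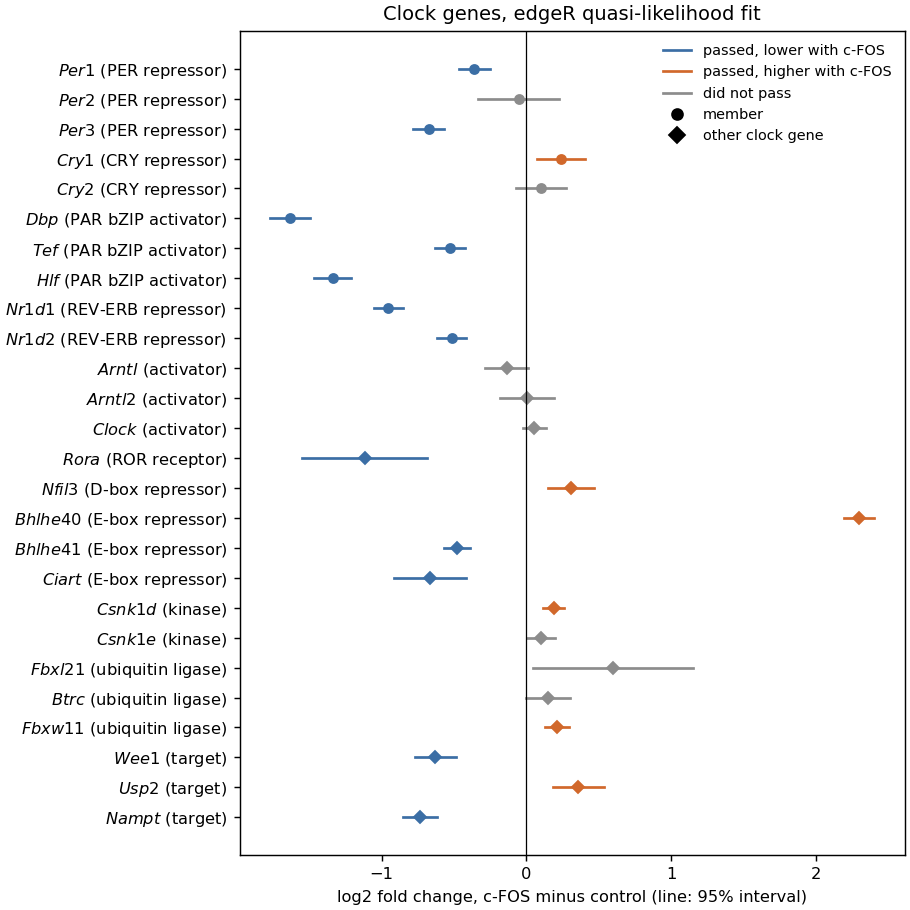
Log2 fold change (c-FOS minus control) of the 10 members (circles) and of the 16 tested genes of the other clock list (diamonds), with 95% intervals from the edgeR fit (n = 2 per group) and colours for the call. Dbp (-1.63), Hlf (-1.34) and Nr1d1 (-0.95) lay to the left, Clock (0.06) and Arntl (-0.14) near 0, and Bhlhe40 (2.30) to the right.

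Between 28405433 and 32465409 counts were deposited per library. Keratinocyte markers were present in all 4 libraries. The 5 on the list (Krt5, Krt14, Krt15, Trp63 and Cdh1) were called lower with c-FOS, as were 33.4% of all genes tested. They went from a summed 19211 and 19429 CPM to 8794 and 9136 CPM, and Krt5 and Krt14 carried most of this sum. With c-FOS they ranged from 13.3% of the control level for Krt15 to 69.3% for Krt14. The 7 fibroblast markers summed to 5.38 and 5.62 CPM in the control and to 14.96 and 16.5 CPM in the c-FOS libraries. Pdgfra carried most of this sum (4.24 and 4.22 against 11.4 and 11.9 CPM), Col1a2 also rose, Dcn went from 0.269 and 0.575 to 0.144 and 0.129 CPM, and Lum and Thy1 had at most 0.5 deposited counts in any library. The 5 leukocyte markers summed to 0.437 and 0.256 and to 18.5 and 18.5 CPM, nearly all from Csf1r, with Cd3e at 0 and Adgre1 at no more than 0.5 deposited counts. The 3 endothelial markers summed to between 79.5 and 101 CPM, nearly all from Pecam1, with Kdr at 0, and the 3 melanocyte markers to at most 0.0336 CPM, with Mlana and Tyr at 0. The part of these markers in the clock gene values was not tested.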

How the data were processed

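RNA of the 4 ASZ001 libraries was column-purified and prepared with an Illumina TruSeq kit, per the labels' protocols. The authors aligned reads with TopHat and analysed them with HOMER, per the series design text; the build was mm9 and DESeq2 was also used, per the submitters' processing notes. Neither versions nor the annotation are stated there. The deposited values are unnormalized expected counts in steps of 0.5. They were rounded to whole numbers (0.5 to the even number), and for the 2 repeated symbols the row with the higher total was kept. The test was edgeR 4.0.16 (R 4.3.3): TMM factors, filterByExpr (minimum count 10, minimum total 15), two-sided quasi-likelihood test between the groups with no covariate, adjusted over the 12780 genes by Benjamini-Hochberg at 0.05. SE and 95% intervals derive from the F statistic, with 2 residual and 10.6 prior degrees of freedom. The authors' deposited gene model length, a further column, gave levels per kilobase. The procedure was also run on simulated independent counts with a common dispersion, which does not check the calls in these data.

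Alternatives were RLE, upper-quartile and no factors, no filter and a minimum of 50 counts, DESeq2 1.42.0, limma-voom (limma 3.58.1), a replicate block and leaving out each library. The genes named were all members, and of the other clock list the activators, Nfil3 and, where reported here, the 6 genes past the threshold with the highest absolute fold changes; Bhlhe41, Csnk1d, Fbxw11, Usp2 and those that did not pass were added after their values were seen. Thra and Sphk2 were taken for their exon overlap. Members and lists were chosen with earlier results of these data known. Libraries of 1 group differed beyond sampling noise (chi-square 4.23 per degree of freedom in control and 1.8 in c-FOS libraries), so each library counted as 1 replicate. Proteins were not analysed here, and the lists and their counts leave out a few genes that are not reported here.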

Additional observations from a re-analysis of the deposited data

How the results depend on the processing

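The calls of 7 members as lower (Per1, Per3, Dbp, Tef, Hlf, Nr1d1 and Nr1d2) held under the 12 alternatives run. The number of members that passed as higher, 1 (Cry1), was 0 with library totals, upper-quartile factors and DESeq2, and between 0 and 1 when a library was left out. The number of other clock genes that passed as higher, 5, was 2 with library totals and between 5 and 8 when a library was left out. With library totals the median of all genes moved from -0.01 to -0.14 on the log2 scale, and 3205 genes passed as higher and 5856 as lower, against 4325 and 4264. Small log2 fold changes turned sign with library totals for Cry2 (-0.035), Arntl2 (-0.13), Clock (-0.082) and Csnk1e (-0.034). They also turned with upper-quartile factors for Arntl2 (-0.056) and Clock (-0.0080). With a library left out, Arntl2 lay between -0.026 and 0.043 (negative without control replicate 2) and Per2 between -0.19 and 0.098 (positive without control replicate 1 and without c-FOS replicate 1). Without gene length, the members spanned a 30.4-fold range in control in place of 48.2-fold. With 1 library left out, the lone library of a group is assumed to vary like the other group. The labels give both groups the replicate numbers 1 and 2 and state no pairing. Across genes, the deviations of same-numbered libraries had a correlation of -0.0755. With 2 libraries per group, this value cannot settle whether same-numbered libraries were handled together. With the replicate block 8453 genes passed in place of 8589, and 7 members were lower and 1 higher. In that fit 6 other clock genes in place of 5 were higher, with Fbxl21 added (0.59, adjusted p = 0.0481, edgeR). Npas2, with at most 4.5 counts per library, was too low to be tested.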
